A study of Mus musculus with 9 samples.

Results

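The tight junction genes of the blood-brain barrier were followed in mRNAs pulled down with tagged ribosomes of astrocytes. The set holds 9 genes listed by symbol (Cldn5, Cldn12, Ocln, Marveld2, F11r, Jam2, Esam, Tjp1 and Cgn) out of 22092 genes with a matched transcript, and all 9 had counts. All mice were of the strain Aldh1L1 JD130 and 2 months old, and carried the transgene tg:Aldh1L1-L10aGFP, in which the astrocyte promoter of Aldh1l1 drives the ribosomal protein L10a fused to eGFP. Translating ribosome affinity purification (TRAP) pulls down this protein together with ribosomes and their mRNAs. The 3 whole astrocyte TRAP libraries were made from 1 brain each, freed of choroid plexus, and the 6 endfeet TRAP libraries from purified brain vessels of 8 mice pooled for each, with astrocyte endfeet still attached. Cycloheximide, which holds ribosomes on their mRNAs, was in the buffers of the vessel purification. The groups thus differed in purification and pooling as well as in the part of the astrocyte sampled, and these cannot be told apart. Removal of choroid plexus is stated for the whole astrocyte libraries only, and whether the groups differed in it is not known.

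Tight junctions seal the space between neighbouring endothelial cells of brain vessels, and between epithelial cells of the choroid plexus. Claudins form the paired strands that close the gap, occludin and tricellulin (Marveld2) are MARVEL domain proteins that join these strands, the latter where 3 cells meet, and junctional adhesion molecules hold the membranes together from outside. Inside the cell, scaffold proteins such as ZO-1 (Tjp1) and cingulin (Cgn) link the strands to actin. Of these genes, Cldn5 and Esam are known as products of endothelial cells in brain, while ZO-1 is made by many cell types, astrocytes among them.

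Of the 9 genes, 8 had higher levels in endfeet TRAP than in whole astrocyte TRAP and Cgn could not be called. The rise was large for Cldn5, Esam, Ocln, Marveld2 and F11r, between 38.8 and 638-fold, and these genes were at most at 2.47 counts per 1000000 counts (CPM) in any whole astrocyte library. It was between 2.63 and 2.86-fold for Tjp1, Cldn12 and Jam2, which were at 20.5 CPM or more in every whole astrocyte library. CPM was taken on the sum over genes of a library. By edgeR's quasi-likelihood test, with adjustment over all genes tested and a threshold of 0.05, 8 genes of the 8 tested were higher, against 20.7% of all 14427 genes tested, and none was lower, against 13.9%. Marveld2, Esam and Cldn5 passed the filter on low counts through the endfeet libraries, which favours a higher level there, so that the count describes the set and supports nothing further. With no filter beyond 1 count, 9 genes were tested and the same 8 were higher, against 15.8% of 17542 genes. All 6 endfeet libraries lay above all 3 whole astrocyte libraries for 8 genes of the set, against 17.7% of all genes tested.

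**Figure D1:**
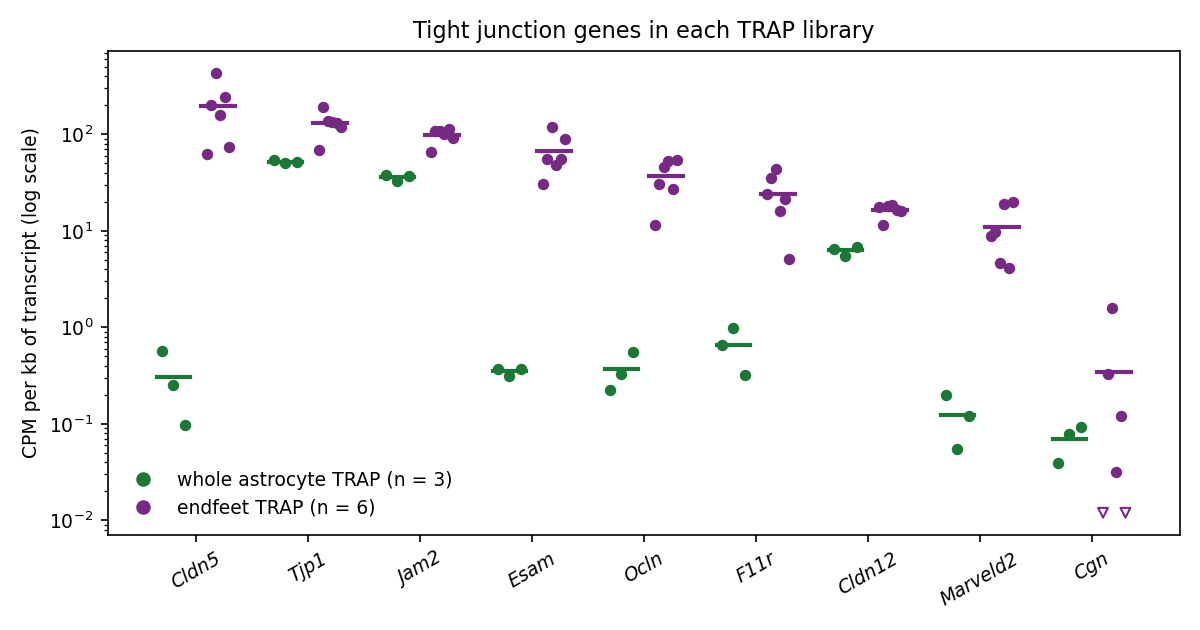
Level of each gene in each library, in CPM per kb of transcript on a log axis, with whole astrocyte TRAP (n = 3) in green, endfeet TRAP (n = 6) in purple, lines for the means and open triangles for a count of 0. All endfeet points lie above all whole astrocyte points for every gene but Cgn, and the whole astrocyte points of Tjp1, Jam2 and Cldn12 lie above those of the other genes.

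The depth of the libraries differed between the groups. Gene totals ran from 35984144 to 43521208 counts in whole astrocyte TRAP and from 2319495 to 13450588 in endfeet TRAP, where endfeet library 6 was the smallest. The lowest amount taken as visible, 3 counts, was 0.0689 to 0.0834 CPM and 0.223 to 1.29 CPM respectively. These limits, like all intervals below, cover counting error alone, as reads from amplified RNA do not stand for separate molecules. Dispersion common to all genes was 0.0141 for the former and 0.725 for the latter group, so that the endfeet libraries varied far more among themselves. The 10 astrocyte markers summed to 23986 to 25865 CPM in whole astrocyte and 11171 to 30187 CPM in endfeet libraries, and none was at 0 in either group. Of these, 1 was higher and 4 were lower in endfeet TRAP.

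Markers of several other cell types rose with the set, while the sums of neuronal and oligodendrocyte markers, given at the end, fell. The 15 endothelial markers were all higher in endfeet TRAP, against 20.7% of all genes tested. They summed to 7.0 to 10.6 CPM in whole astrocyte libraries and to 3396 to 6770 CPM in endfeet libraries. Ly6c1 was the one at 0 in all whole astrocyte libraries. Only Flt1 of them reached the filter on low counts (0.752 CPM) in all whole astrocyte libraries. The others passed it through the endfeet libraries, which favours a higher level there, so that their calls support nothing further. The same holds for Kcnj8, Abcc9, Folr1, Aqp1, Cx3cr1, C1qa and Mrc1 of the lists that follow. Aif1 was also below the filter in its lowest whole astrocyte library and was not called (adjusted p = 0.631, edgeR's quasi-likelihood test). The 8 choroid plexus markers, of which 7 were higher, summed to 77.5 to 1619 CPM and to 6908 to 74058 CPM. For the 10 mural markers, all higher, the sums were 38.2 to 39.9 CPM and 2923 to 7953 CPM, and for the 6 fibroblast markers, all higher, 29.5 to 42.5 CPM and 735 to 1352 CPM. The 8 markers of microglia and macrophages, 5 of them higher, summed to 17.6 to 21.3 CPM and to 159 to 327 CPM. The part of these cells in the levels of the junction genes was not tested. In such bulk libraries, more cells of a type and more RNA in each of its cells cannot be told apart. No library was made from input RNA or from mice without the tag. RNA of tagged ribosomes and other RNA in the pull-down thus cannot be told apart either.

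Cldn5, the main claudin of brain endothelium, lies at chr16:18776847-18778262 of mm10 on the plus strand, in 1 exon. It had 29, 13 and 6 counts in whole astrocyte libraries 1, 2 and 3, or 0.806, 0.361 and 0.138 CPM. In endfeet TRAP it ran from 87.7 CPM in library 1 to 616 CPM in library 3, with a median of 253 CPM. The lowest endfeet library was 109 times above the highest whole astrocyte library, and the groups did not overlap. The log2 fold change was 9.32 (SE 0.87, adjusted p = 4.84e-06, edgeR's quasi-likelihood test), for means of 277 ± 194 CPM (SD, n = 6) and 0.435 ± 0.340 CPM (SD, n = 3). It had the widest relative spread of the 8 genes called, an SD of 70.1% of the mean in endfeet TRAP.

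Cldn12, a claudin without the binding motif for ZO proteins that most others carry, lies at chr5:5505015-5514789 on the minus strand, in 5 exons. It was at 24.5, 20.5 and 25.6 CPM in the whole astrocyte libraries. Endfeet libraries ran from 42.9 to 70.1 CPM with a median of 64.3 CPM. The groups did not overlap, and endfeet library 2 was the low one, with the other five between 60.8 and 70.1 CPM. The log2 fold change was 1.49 (SE 0.36, adjusted p = 0.00653, edgeR's quasi-likelihood test). Without whole astrocyte library 2 it was 1.38 and no longer passed the threshold (adjusted p = 0.0553, edgeR's quasi-likelihood test). Its spread in endfeet TRAP, 16.0% of the mean, was the smallest of the set.

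Ocln, which encodes occludin, lies at chr13:100496507-100552498 on the minus strand, in 9 exons. Whole astrocyte libraries had 0.917, 1.33 and 2.27 CPM, and endfeet libraries 47.0 to 218 CPM with a median of 154 CPM. Every endfeet library was far above every whole astrocyte library, by at least 20.7 times. The log2 fold change came to 6.68 (SE 0.62, adjusted p = 4.64e-06, edgeR's quasi-likelihood test).

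Marveld2, which encodes tricellulin, lies on the same strand at chr13:100595957-100616971, in 7 exons, 43458 bases from Ocln. It had 22, 6 and 16 counts in the whole astrocyte libraries, or 0.611, 0.166 and 0.368 CPM. Endfeet libraries ran from 12.7 to 60.8 CPM with a median of 28.6 CPM, so that the groups did not overlap. Libraries 4 and 6 were high, at 58.9 and 60.8 CPM, and libraries 3 and 5 were low. On the log2 scale the fold change was 6.56 (SE 0.93, adjusted p = 0.000138, edgeR's quasi-likelihood test).

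F11r encodes JAM-A, an immunoglobulin-like adhesion protein of endothelial and epithelial junctions and of platelets. It lies at chr1:171437535-171464603 on the plus strand, in 10 exons. The whole astrocyte libraries had 1.67, 2.47 and 0.804 CPM, and the endfeet libraries 12.9 to 109 CPM with a median of 57.5 CPM. The groups did not overlap, and endfeet library 6 was the low one. The log2 fold change was 5.28 (SE 0.75, adjusted p = 0.000142, edgeR's quasi-likelihood test). The numbers carried by the libraries put endfeet libraries 1 to 3 in a series A, and the other libraries of both groups in a series B. F11r was the one gene of the set on which these endfeet libraries separated, with 60.5, 89.7 and 109 CPM in series A and 40.5, 54.5 and 12.9 CPM in series B. The share of all genes that separated in this way was not computed, so that the split describes these libraries only. Within series B alone the log2 fold change was 4.39 (adjusted p = 0.00359, edgeR's quasi-likelihood test). The choroid plexus markers separated the same way, with sums of 30382 to 74058 CPM in series A and 6908 to 17638 CPM in series B, and their part in F11r was not tested. The 4 blood and platelet markers tested were all higher in endfeet TRAP, but passed the filter on low counts through the endfeet libraries, which favours a higher level there. The 6 listed summed to 2.31 to 3.47 CPM in whole astrocyte and 42.0 to 131 CPM in endfeet libraries.

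Jam2, another junctional adhesion molecule, lies at chr16:84774123-84825928 on the plus strand, in 10 exons. It was at 167, 144 and 162 CPM in the whole astrocyte libraries and at 289 to 503 CPM in the endfeet libraries, with a median of 457 CPM. The groups did not overlap, and the endfeet libraries varied little, by 18.1% of the mean. Its log2 fold change was 1.52 (SE 0.23, adjusted p = 0.000269, edgeR's quasi-likelihood test).

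Esam, an adhesion molecule of endothelial cells and platelets, lies at chr9:37528078-37538319 on the plus strand, in 7 exons. The whole astrocyte libraries had 25, 21 and 30 counts, or 0.695, 0.583 and 0.689 CPM. The endfeet libraries had 57.1 to 224 CPM with a median of 103 CPM, and the lowest of them was 82.2 times above the highest whole astrocyte library. Its log2 fold change was 7.60 (SE 0.56, adjusted p = 6.88e-07, edgeR's quasi-likelihood test).

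Tjp1, the scaffold ZO-1 that binds the tails of claudins and occludin, lies at chr7:65296165-65371239 on the minus strand, in 28 exons. It was at 382, 353 and 365 CPM in the whole astrocyte libraries and at 492 to 1347 CPM in the endfeet libraries, with a median of 941 CPM. The groups did not overlap, although endfeet library 1 was only 1.29 times above the highest whole astrocyte library. The log2 fold change was 1.40 (SE 0.27, adjusted p = 0.0016, edgeR's quasi-likelihood test).

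Cgn, which encodes cingulin, lies at chr3:94760069-94786463 on the minus strand, in 21 exons. It had 7, 14 and 20 counts in the whole astrocyte libraries and 0, 14, 106, 2, 8 and 0 counts in endfeet libraries 1 to 6. The levels overlapped, and endfeet library 3 alone held 106 of the 130 endfeet counts. Means were 1.72 ± 3.12 CPM (SD, n = 6) and 0.348 ± 0.137 CPM (SD, n = 3), a difference that was not past a two-sided exact permutation test (p = 0.667, smallest possible p = 0.0238 over 84 splits). A count of 0 allowed up to 0.461 CPM in endfeet library 1 and 1.29 CPM in endfeet library 6, so that a level like the mean of whole astrocyte TRAP was not detectable at the depth of either.

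**Figure D2:**
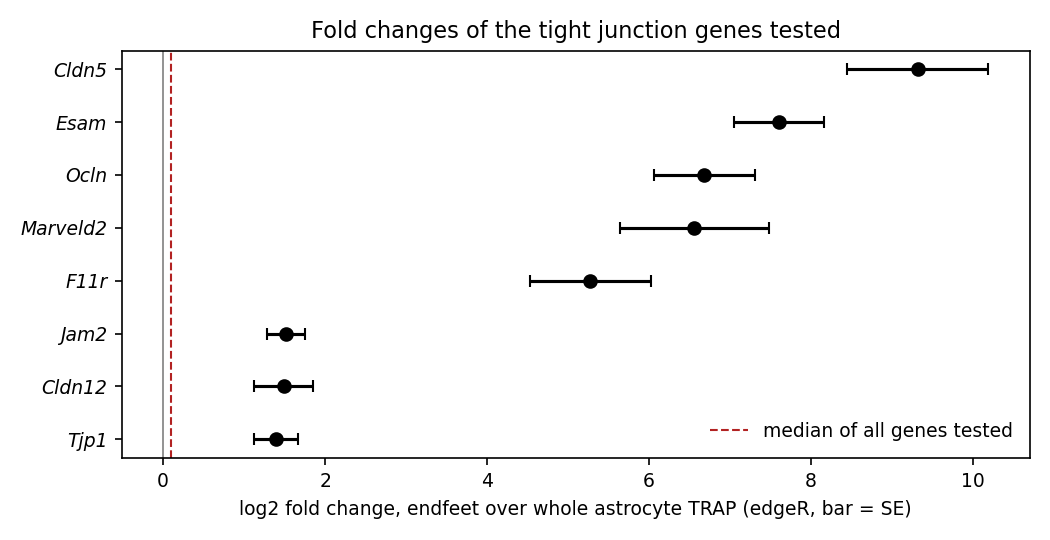
Log2 fold change of endfeet over whole astrocyte TRAP for the 8 genes tested, with bars of 1 SE from edgeR, a grey line at 0 and a dashed line at the median of all genes tested (0.10). Tjp1, Cldn12 and Jam2 lie between 1.40 and 1.52 and the other genes between 5.28 and 9.32.

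Levels of different genes were compared per kb of the counted transcript. In whole astrocyte TRAP the order was led by Tjp1 with 52.0 ± 2.05 CPM per kb (SD, n = 3), Jam2 with 36.1 ± 2.76 and Cldn12 with 6.27 ± 0.719, and each of these was above the next gene in every library and beyond their spread. The other genes, F11r, Ocln, Esam, Cldn5, Marveld2 and Cgn, were between 0.654 and 0.0700 CPM per kb, and no neighbours among them differed beyond their spread. In endfeet TRAP Cldn5 moved from the seventh to the first place, with 195 ± 137 CPM per kb (SD, n = 6), followed by Tjp1 with 131 ± 38.9, Jam2 with 98.3 ± 17.7 and Esam with 66.7 ± 32.8. Ocln had 36.8 ± 16.7, F11r 24.3 ± 13.7, Cldn12 16.4 ± 2.63 and Marveld2 11.1 ± 6.92 CPM per kb. Along this order Marveld2 differed from the last gene, Cgn with 0.347 ± 0.629 CPM per kb, beyond their spread, and no other neighbours did.

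Each gene was then set against the summed CPM of the 15 endothelial markers of its own library. Cldn5 stood at 11.5, 3.40 and 1.75% of this sum in the whole astrocyte libraries and at 2.37 to 9.10% in the endfeet libraries, with a median of 5.03%, so that the groups overlapped. For Esam the whole astrocyte libraries gave 9.92, 5.50 and 8.75% and the endfeet libraries 1.68 to 3.82%. For Ocln they gave 13.1, 12.6 and 28.9% against 1.38 to 4.93%. F11r had 23.8, 23.3 and 10.2% against 0.293 to 1.78%, and Marveld2 8.73, 1.57 and 4.66% against 0.209 to 1.38%. Relative to the endothelial markers, Esam, Ocln, F11r and Marveld2 were thus lower in every endfeet library than in every whole astrocyte library. The marker sum itself was 7.0 to 10.6 CPM in whole astrocyte and 3396 to 6770 CPM in endfeet libraries. A gene that rose less than this sum tends to a lower share, so that the fall describes the sum more than these genes. For Marveld2 the separation rests on 6 counts in whole astrocyte library 2 (1.57%, against at most 1.38% in endfeet libraries). Tjp1 stood at 3333 to 5455% of the endothelial sum in whole astrocyte TRAP and at 14.3 to 26.1% in endfeet TRAP, and Jam2 at 1362 to 2389% and 7.01 to 9.94%. The level of these genes in whole astrocyte TRAP was thus many times the whole endothelial marker sum. The share was lower in all endfeet libraries for 8 genes of the set, Cldn5 being the exception, against 97.4% of all genes tested. With Cdh5 and Pecam1 alone in place of the 15 markers it was lower for 6 genes, against 97% of all genes tested, and Esam and Marveld2 overlapped as well.

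**Figure D3:**
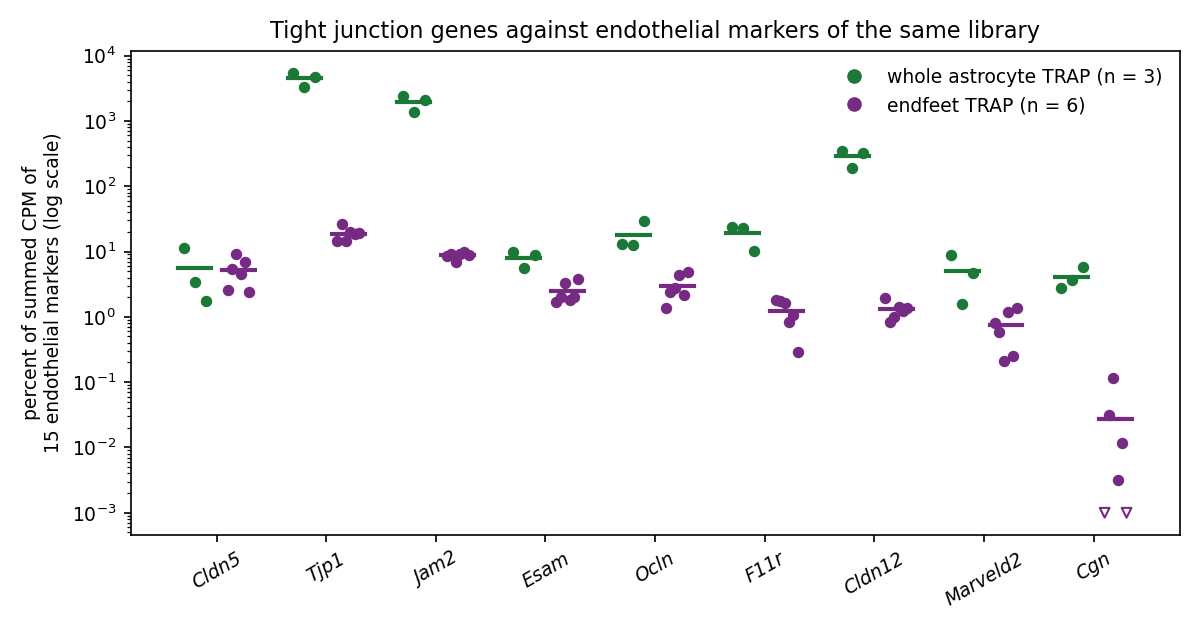
Level of each gene as a percent of the summed CPM of 15 endothelial markers in the same library, on a log axis, with whole astrocyte TRAP (n = 3) in green, endfeet TRAP (n = 6) in purple, lines for the means and open triangles for a count of 0. The groups overlap for Cldn5 and are separate for the other genes, with Tjp1, Jam2 and Cldn12 far above 100% in whole astrocyte TRAP.

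Reads were counted on every transcript that they overlapped, so that shorter transcripts of a gene tell roughly where its reads lay. Shorter transcripts also hold bases of their own, 146 in Marveld2-203, 83 in Esam-205 and 1500 in Jam2-201. Reads there count as well, so that their counts are not strictly a part of those of the counted transcript. The exact intervals below treat them as such a part. Marveld2-203 holds all 1665 coding bases of the counted Marveld2 transcript but 62 of its 1335 bases of 3′ UTR, in all 56.9% of its length. It received 0, 80, 32, 358, 1 and 0 counts in endfeet libraries 1 to 6, against 177, 260, 188, 746, 171 and 141 counts of that transcript. The share was thus 48.0% in library 4 (exact Clopper-Pearson 95% interval 44.4 to 51.6%) and at most 2.06% in library 1 by the same interval. In the whole astrocyte libraries there were 1, 0 and 1 counts against 22, 6 and 16, with exact upper limits of 22.8, 45.9 and 30.2%. These were too few counts to place the reads. Counts of Marveld2 in endfeet libraries 1, 5 and 6 thus lay almost wholly outside the transcript that holds the coding part, and in endfeet libraries 2, 3 and 4 a larger share lay on it. Esam-205, which shares 41.6% of the counted Esam transcript and none of its 3′ UTR, received 0.510 to 8.20% of the counts in endfeet libraries and 12, 23.8 and 16.7% in whole astrocyte libraries, the latter on 13 of 76 counts. These shares did not overlap between the groups, though the exact intervals of the whole astrocyte libraries were wide (2.55 to 31.2% for library 1). How many of all transcripts have shares without overlap was not computed, so that this describes Esam-205 only.

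Tjp1 and Jam2 were counted far more deeply in both groups. Tjp1-201, with 85.7% of the counted length, received 90.0 to 95.6% of the counts in endfeet libraries and 92.4 to 92.8% in whole astrocyte libraries. Jam2-203, with 15.03% of the length, received 9.38 to 13.9% and 10.4 to 11.4%. The ranges overlapped for both of these transcripts. Jam2-201, which shares 11.4% of the length and holds 1500 bases of its own, received less, 1.12 to 4.21% and 4.003 to 4.58%. Tjp1-204, with 4.36% of the length, received 0.103 to 1.47% and 0.684 to 1.15%. Ocln-201, with 66.2% of the length and all 1563 coding bases, received 59.4 to 96.1% and 81.8 to 90.9%. No exon base of a counted transcript of the set was shared with another gene.

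**Figure D4:**
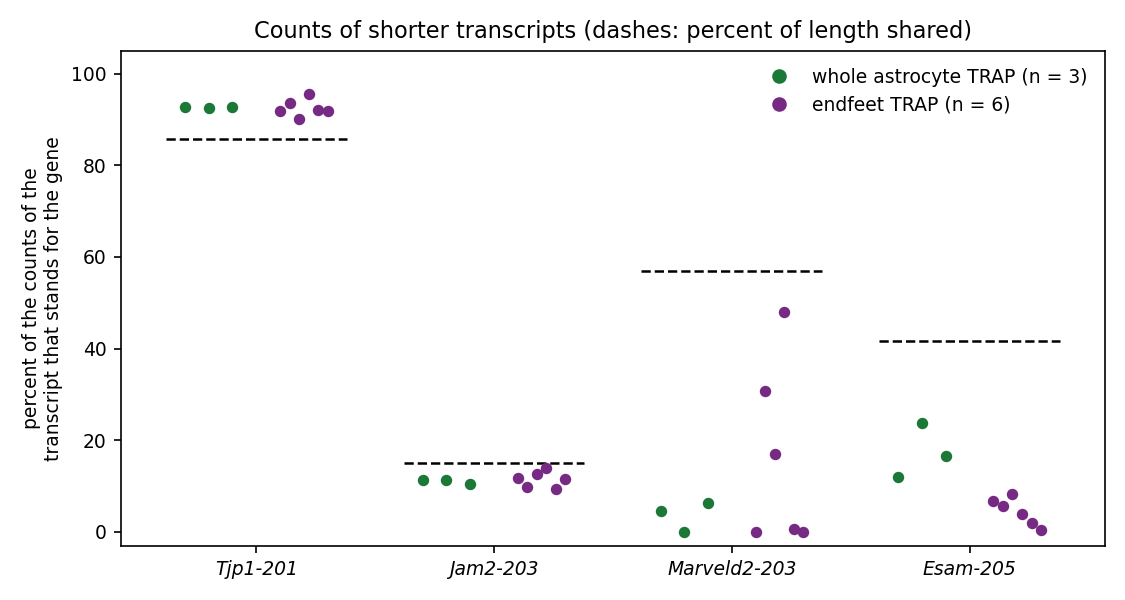
Counts of 4 shorter transcripts as a percent of the counts of the transcript that stands for the gene, with whole astrocyte TRAP (n = 3) in green, endfeet TRAP (n = 6) in purple and dashes at the percent of length shared. Points of Tjp1-201 and Jam2-203 lie near the dashes in both groups, those of Marveld2-203 spread from 0 to 48.0% in endfeet TRAP, and those of Esam-205 lie below the dashes.

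The sequences before the start of these genes were read from RefSeq (build GRCm38.p6), which gave an entry for 7 of the 9 genes, without Jam2 and Esam. Those of Cldn5, Ocln and Marveld2, whose levels differed most among the genes with an entry, are shown with that of Tjp1, which differed least. Each runs 5′ to 3′ over the 250 bases before the annotated start, and capitals mark the GC box GGGCGG on either strand.
Cldn5, chr16:18776597-18776846, plus strand: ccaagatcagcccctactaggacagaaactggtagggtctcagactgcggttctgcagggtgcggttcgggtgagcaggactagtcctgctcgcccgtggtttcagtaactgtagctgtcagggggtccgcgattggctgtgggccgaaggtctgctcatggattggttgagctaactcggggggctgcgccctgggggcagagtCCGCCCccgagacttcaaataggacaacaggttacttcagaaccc
Ocln, chr13:100552499-100552748, minus strand: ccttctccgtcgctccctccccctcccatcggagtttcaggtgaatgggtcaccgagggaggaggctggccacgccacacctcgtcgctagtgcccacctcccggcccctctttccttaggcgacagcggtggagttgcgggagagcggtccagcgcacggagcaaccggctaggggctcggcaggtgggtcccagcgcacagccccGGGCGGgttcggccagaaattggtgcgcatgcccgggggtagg
Marveld2, chr13:100616972-100617221, minus strand: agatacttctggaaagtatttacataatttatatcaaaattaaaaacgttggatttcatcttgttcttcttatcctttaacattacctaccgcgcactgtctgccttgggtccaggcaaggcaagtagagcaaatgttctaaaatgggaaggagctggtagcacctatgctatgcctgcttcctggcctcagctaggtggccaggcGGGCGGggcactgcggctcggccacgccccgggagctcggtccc
Tjp1, chr7:65371245-65371494, minus strand: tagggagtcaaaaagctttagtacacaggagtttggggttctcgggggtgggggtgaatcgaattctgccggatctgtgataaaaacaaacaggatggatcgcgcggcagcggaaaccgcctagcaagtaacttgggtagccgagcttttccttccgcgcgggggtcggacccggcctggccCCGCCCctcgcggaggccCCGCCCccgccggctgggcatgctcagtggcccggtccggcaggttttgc
The GC box was found in all 7 windows, against 32.7% of 32851 promoter windows of the same length. Of the other motifs searched on both strands, the ETS core CCGGAA was found in the window of Cldn12 and in no other of the set (12.03% of all windows). The SOX core ACAAAG (16.5% of all windows) and the TCF and LEF core TCAAAG (13.8%) were in none. The GC box was thus found before genes with large and with small changes alike, and a match of letters does not show that a factor binds.

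The other genes of tight and adherens junctions were counted from lists by role. Of 67 genes found, 49 were tested, 22 were higher and 3 lower in endfeet TRAP. Over all genes tested, 20.7% were higher and 13.9% lower, the shares to set beside each list below. The median log2 fold change was 1.16 against 0.10 over all genes tested. Some genes, Cldn2, Lsr, Cdh5, Pecam1 and Ptprb among them, passed the filter on low counts through the endfeet libraries, which favours a higher level there. Cdh5 and Pecam1 are also in the endothelial marker list. Among the other claudins 6 of 20 were tested, 3 were higher and 1 was lower. Cldn2, a pore-forming claudin of the choroid plexus, went from 4.17 ± 3.06 to 129 ± 58.0 CPM (log2 fold change 5.05, adjusted p = 0.000214, edgeR's quasi-likelihood test). Cldn1, also found in choroid plexus epithelium, had 2.66 ± 0.702 and 59.1 ± 49.6 CPM (log2 fold change 4.61, adjusted p = 0.00544, edgeR's quasi-likelihood test). The groups overlapped for Cldn1, as its lowest endfeet library, at 1.72 CPM, was below the lowest whole astrocyte library, at 1.86 CPM. Cldn10 fell from 178 ± 18.2 to 44.2 ± 14.0 CPM (log2 fold change -1.90), whereas Cldn11, a claudin of myelin, had 12.98 and 23.1 CPM and did not pass (adjusted p = 0.214, edgeR's quasi-likelihood test). Cldn5 was thus the most abundant claudin of endfeet TRAP per kb, above Cldn2 with 42.4 CPM per kb, while Cldn10 led in whole astrocyte TRAP with 83.5 CPM per kb.

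All 3 tricellular and MARVEL genes tested were higher, of 5 found. Lsr, the receptor that brings tricellulin to tricellular contacts, went from 0.583 ± 0.327 to 90.7 ± 41.0 CPM (log2 fold change 7.34, adjusted p = 3.85e-06, edgeR's quasi-likelihood test). Ildr2, of the same angulin family, went from 51.5 ± 6.16 to 649 ± 192 CPM (log2 fold change 3.74), and Marveld1 changed by 3.72. Of the 7 immunoglobulin-like adhesion genes, 3 were higher and 4 did not pass, with Clmp at 3.20, Cxadr at 3.67, Jam3 at 1.22 (adjusted p = 0.186, edgeR's quasi-likelihood test) and Nectin3 at 0.93 (adjusted p = 0.0739, edgeR's quasi-likelihood test) as log2 fold changes. Jam3, the third junctional adhesion molecule, thus did not pass where F11r and Jam2 did, and the difference between them was not tested.

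Of 17 cytoplasmic scaffold genes, 6 were higher, 1 was lower and 10 did not pass. Cgnl1, which encodes paracingulin, a relative of cingulin, went from 4.11 ± 1.53 to 375 ± 142 CPM (log2 fold change 6.58, adjusted p = 6.48e-07, edgeR's quasi-likelihood test), while Cgn had 41 counts in all whole astrocyte and 130 in all endfeet libraries. Ybx3, a partner of ZO-1, rose by 1.72 and Amotl1 by 1.40 on the log2 scale, and Amot had 0.90 without passing (adjusted p = 0.0635, edgeR's quasi-likelihood test). Tjp3, a relative of Tjp1, was at 1.08 and 1.31 CPM and did not pass (adjusted p = 0.855, edgeR's quasi-likelihood test). Tjp3 and the lower Magi2 (log2 fold change -1.20) were named after their values were seen.

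**Figure D5:**
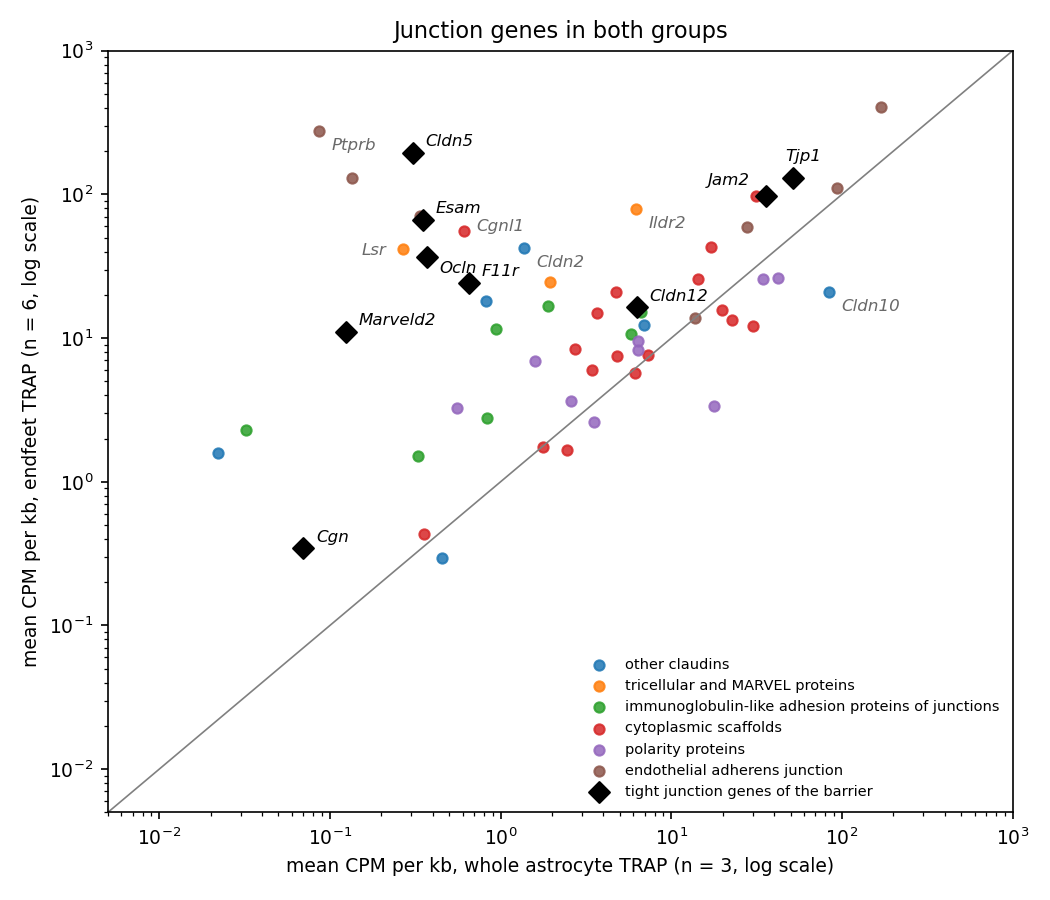
Mean CPM per kb in whole astrocyte TRAP (n = 3) against endfeet TRAP (n = 6) on log axes, with the 9 barrier genes as black diamonds, the other junction genes tested as points coloured by list and a line of equal level. The diamonds lie above the line, with Cldn5, Esam, Ocln, F11r and Marveld2 far above it, and Cldn10 lies below it.

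Across the 6 endfeet libraries, the other genes of the set varied with Cldn5 to unequal degrees. Over 9850 genes with a mean of at least 10 CPM there, ranked by Pearson's r of log2(CPM + 1) with Cldn5, Jam2 came at rank 675 (r = 0.829), Tjp1 at 1862 (r = 0.659), F11r at 1920 (r = 0.651) and Esam at 2731 (r = 0.543). Ocln (r = 0.385) and Cldn12 (r = -0.084) came lower, and Marveld2 was at rank 9278 with r = -0.636. The genes most like Cldn5 were Tmem147 (r = 0.988), Rp9 (r = 0.984), Gucy1b1 (r = 0.983), Mpnd (r = 0.982) and Pla2g15 (r = 0.981). The libraries share depth and total with every gene, and with 6 points these values describe the libraries only.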

How the data were processed

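RNA pulled down with L10a-eGFP ribosomes was sequenced in 3 whole astrocyte TRAP and 6 endfeet TRAP libraries as reads of 50 bp. The authors demultiplexed with bcl2fastq 1.8.4, aligned the reads to mm10 with Bowtie, dropped reads aligning more than once and counted overlaps with Ensembl 75 transcripts by HTSeq 0.5.3. The deposited values are raw counts per transcript, not normalized. Vessel buffers held cycloheximide, and the RNA was amplified.

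Of 75466 transcripts, 73164 were found in GENCODE M21 of the same build, in 22092 genes. Each gene was given by the transcript with the highest CPM summed over libraries, because a read counts on every transcript it overlaps. Levels are CPM on gene totals, or CPM per kb of that transcript. Groups were compared in edgeR 4.0.16 (R 4.3.3) with TMM, filterByExpr and the quasi-likelihood test. P-values were adjusted by Benjamini-Hochberg over 14427 genes, with a threshold of 0.05, and SE is the absolute log2 fold change over the square root of F. Whether libraries of a group were prepared separately is not stated beyond their mice, so that p-values measure the spread between these libraries. The test was tested on simulated data with known changes and the same dispersion in both groups, so that the unequal spread of these groups was not covered. Tables were handled in Python 3.11.15, with scipy 1.17.1 for exact intervals and permutation.

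The genes and the lists of junction genes and cell markers were chosen with earlier results of these data known. In each junction list up to 4 genes are named, those with the highest mean CPM in endfeet TRAP, and any other is said to be named after its values were seen. A scaffold gene is included in the counts of its list, and its own values are not reported here. Replicate numbers are shared by both groups but no source says that they mark a pair. The library numbers are used as a candidate batch, and what they stand for is not stated. Alternatives were DESeq2 1.42.0 and limma voom (limma 3.58.1), DESeq2 size factors, other filters on low counts, the library series as a covariate or series B alone, the replicate block, counts summed over transcripts or kept for each transcript, Cdh5 and Pecam1 alone in place of the endothelial list, and each library left out in turn. The replicates 1 to 3 without a block were added after seeing the data.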

Additional observations from a re-analysis of the deposited data

Results flagged for a closer look

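Of 19 series of endfeet values, 3 had a library set apart from the other five by Dixon's criterion, which chance meets in about 1 of 20 groups. Cldn12 was at 42.9 CPM in endfeet library 2, below a median of 64.3 CPM. Cgn was at 7.97 CPM in endfeet library 3, above a median of 0.376 CPM. The same library held Cgn at 0.118% of the summed endothelial CPM, above a median of 0.0075%.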

How the results depend on the processing

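The 8 genes called kept their direction under every alternative in which they were tested, and 7 of them stayed past the threshold in all of these. Log2 fold changes ran from 8.86 to 10.15 for Cldn5, 7.36 to 7.72 for Esam, 6.24 to 7.09 for Ocln, 6.03 to 7.10 for Marveld2, 4.39 to 5.85 for F11r, 1.35 to 1.61 for Jam2, 1.33 to 1.64 for Cldn12 and 1.25 to 1.48 for Tjp1. Cldn12 lost its call without whole astrocyte library 2 (1.38, adjusted p = 0.0553, edgeR's quasi-likelihood test). A minimum of 10 counts in every library left Cldn5, Marveld2 and Cgn untested. With each library left out in turn, 7 to 8 of the barrier genes, 18 to 25 higher and 1 to 3 lower of the other junction genes, and 1874 to 3380 higher and 1171 to 2642 lower of all genes passed. Against 3 lower junction genes, 1 passed without whole astrocyte library 1, 2 or 3 or endfeet library 3, 1 with the library series as a covariate and 5 by limma voom, which called 4493 genes lower over all genes against 2006. Without whole astrocyte library 1, 2 or 3, the higher calls over all genes were 1959, 1874 and 1943 against 2991. With each transcript as a feature, the groups did not overlap on any transcript of at least 100 counts for 4 of the genes and overlapped on at least 1 for the others (Tjp1-204, Cldn12-204, Marveld2-203, Jam2-201 and the transcripts of Cgn). The share of all genes without such overlap was not computed, so that this count describes the set only. Cldn5 had only 1 such transcript, which repeats its result as a gene. Against Cdh5 and Pecam1 alone, 6 genes in place of 8 were lower in all endfeet libraries.

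With the replicate number as a block over replicates 1 to 3, the same 8 genes passed, against 16% of all genes higher in that fit. Correlations of deviations ran between -0.038 and 0.070 for the same number and between -0.081 and 0.044 for unlike numbers. With so few pairs, these values cannot tell whether the numbers pair the libraries. The cause of none of these shifts was tested beyond the smaller number of libraries or genes. Depth limits Cgn most, and Marveld2 and Cldn5 in whole astrocyte TRAP rest on 44 and 48 counts.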

Other observations

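Junction genes with other roles were measured beside the barrier genes, where 20.7% of all genes tested were higher and 13.9% lower. Of 9 polarity genes tested, 2 were higher, 1 was lower and 6 did not pass, and the most abundant of them, Mpp5 (Pals1), did not pass with 230 CPM in whole astrocyte and 144 CPM in endfeet TRAP (log2 fold change -0.60, adjusted p = 0.112, edgeR's quasi-likelihood test). Pard6a, named after its values were seen, was the lower one (log2 fold change -2.36). Of 7 endothelial adherens junction genes, 5 were higher and 2 did not pass. Ptprb, the phosphatase VE-PTP, went from 1.02 to 3281 CPM and Pecam1 from 0.462 to 445 CPM, with log2 fold changes of 11.71 and 9.96. Ctnnb1, which encodes beta-catenin, was already at 614 CPM in whole astrocyte TRAP and was at 1481 CPM in endfeet TRAP (log2 fold change 1.36, adjusted p = 0.000569, edgeR's quasi-likelihood test), and Ctnna1 did not pass with 347 and 417 CPM (adjusted p = 0.277, edgeR's quasi-likelihood test).

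The remaining marker lists were those of neurons, oligodendrocytes and ependymal cells. The 7 neuronal markers summed to 3430 to 3936 CPM in whole astrocyte and 925 to 1829 CPM in endfeet libraries, with 2 lower, and the 7 oligodendrocyte markers to 635 to 651 CPM and 201 to 436 CPM, with 1 lower. The 5 ependymal markers summed to 26.6 to 37.2 CPM and 43.5 to 190 CPM, with 3 higher.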
